A study of Mus musculus with 10 samples.

Results

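The synaptic vesicle release machinery is described here as a list of genes chosen by symbol, not by any measured value. Of 53 listed genes, 52 were present in the deposited gene table of 20483 genes. The listed Cplx3 was not analysed here. All 52 reached 1 TPM or more in 5 or more of the 10 libraries, the filter on low values, and entered the comparison. TPM is the number of reads per gene length, scaled to 1000000 per library. Levels of different genes are set side by side on this scale. The gene lengths used are not known and evenness of read coverage was not checked, so comparisons between genes are approximate. The libraries came from wild-type mice, whose age and sex are not given in the labels. Tissue came from the nucleus accumbens, the ventral part of the striatum, with 5 libraries of its lateral shell and 5 of its medial shell. Per the labels' protocols, it was sampled with Geo-seq, a laser-capture method with amplification from low input. The labels call the libraries biological replicates without saying whether each came from its own animal, so p-values measure the spread between these libraries, which may be partly technical.

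A nerve terminal stores transmitter in vesicles, whose fusion is driven by SNARE proteins and triggered by calcium through synaptotagmins. Active zone scaffolds hold vesicles near calcium channels and make them ready to fuse, and an endocytic set of proteins retrieves the membrane afterwards. Most messenger RNA of presynaptic proteins lies in the cell body, so accumbens tissue reports mainly the machinery of its own neurons, nearly all of them GABAergic, rather than that of incoming axons. In these libraries Slc32a1, the vesicular GABA transporter gene, was at 15.6 to 33.6 TPM. Of the vesicular glutamate transporter genes, Slc17a6 was at 0 to 1.3 TPM and Slc17a8 at 0 to 19.8 TPM. In lateral replicate 1, Slc17a8 and Slc32a1 were at 19.8 and 19.7 TPM. Of 7 listed glutamatergic neuron markers 3 were analysed, and these summed to at most 3.31 TPM in any library. In bulk tissue, fewer cells of a type and less RNA per cell cannot be told apart.

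Of the 52 release genes, 1 passed the test for a difference between the regions, Rims2. Rims2, encoding an active zone scaffold that binds Rab3 on vesicles, was higher in the medial shell. It was 1 of 52 genes called in that direction, where 1.1% of the 15596 genes tested were called. None of the 52 was called higher in the lateral shell by limma, where 0.385% of all genes were. At an unadjusted p under 0.05, 6 of the 52 were higher in lateral and 7 in medial, against 3.03% and 12.3% of all genes. The median log2 fold change (difference in mean log2(TPM + 1), lateral less medial) was 0.06 over the 52 genes and -0.21 over all genes tested. Under median-ratio scaling these medians were 0.27 and -0.02, and under quantile normalization 0.15 and -0.0010. Both medians kept their sign, while the small differences of Vamp2, Cplx1 and Snap91 changed sign under median-ratio scaling.

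The intervals below hold for the deposited TPM scaling and gene by gene, not for all 52 genes together. For 28 of the 52 genes the 95% interval of the difference lay within a 2-fold change in both directions, as it did for 38.4% of all genes tested. The 28 included Snap25, Vamp2, Syt1, Cplx1, Rab3a, Nsf, Napb, Rims1, Unc13a, Bsn, Pclo, Erc2, Dnm1 and Snap91. For the other 24 genes the libraries did not bound the difference to 2-fold. The bounds move with the scaling. Under median-ratio scaling the log2 fold change of Snap25 was 0.31, against 0.10 in the main fit. The main upper limits of Bsn, Unc13a and Rims1 were 0.94, 0.85 and 0.84 on the log2 scale, near the 2-fold bound.

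**Figure D1:**
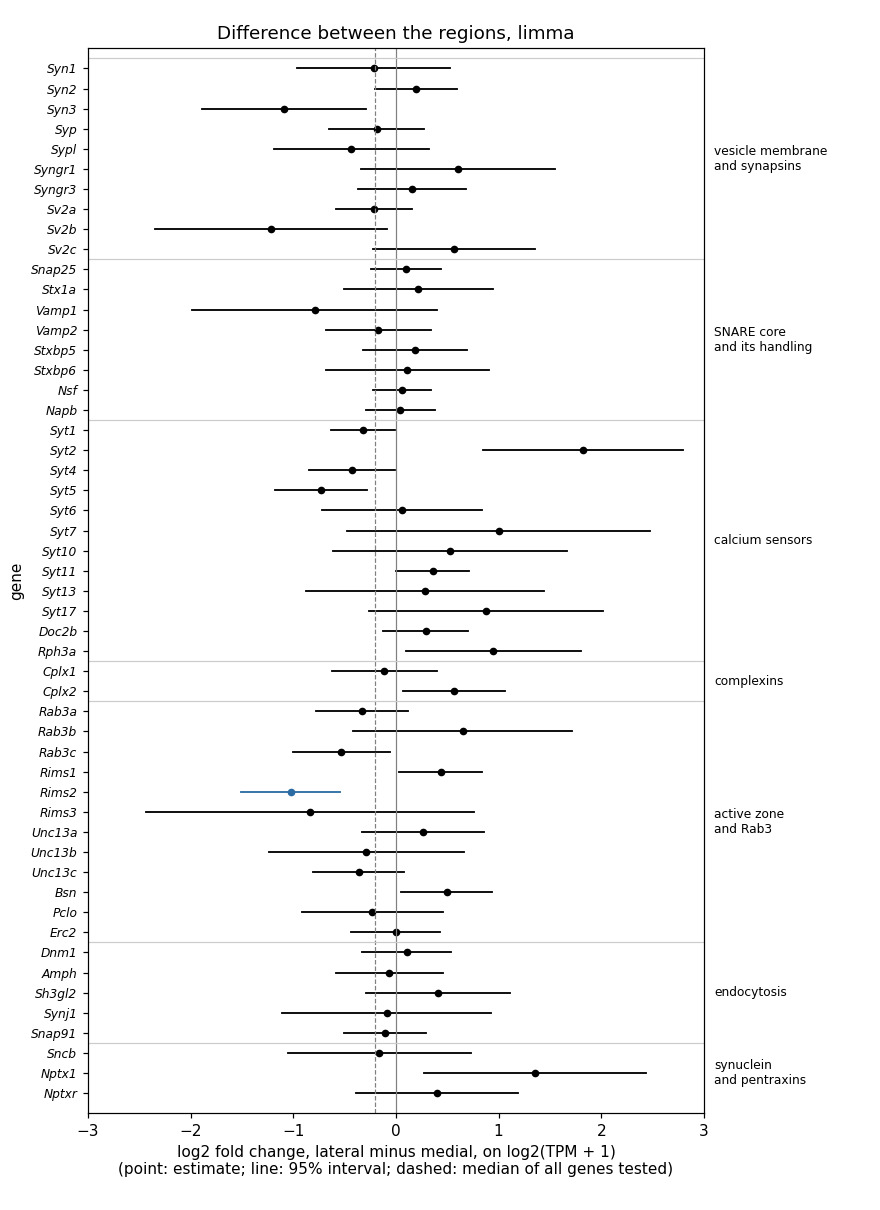
Log2 fold change of each of the 52 release genes, as mean log2(TPM + 1) in lateral less that in medial libraries, with its 95% interval (horizontal line), grouped by role on the vertical axis. The dashed line is the median of all genes tested (-0.21). Rims2, in blue at -1.03, was the only gene to pass at an adjusted p under 0.05, and most genes of the SNARE and endocytosis groups lie close to 0.

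Among vesicle membrane and synapsin genes, none of 10 passed, 4 had positive and 6 negative differences, and the median was -0.20. Synaptophysin, Syp, an abundant vesicle membrane protein, ranged from 98.1 to 153 TPM in lateral and from 95.1 to 220.2 TPM in medial libraries. The smallest p in the group belonged to Syn3, the least abundant of the synapsins, which tether vesicles in the reserve pool. Syn3 was at 1.51, 4.25, 2.36, 3.17 and 1.15 TPM in lateral replicates 1 to 5 and at 3.85, 7.82, 3.98, 7.51 and 8.57 TPM in medial replicates 1 to 5. Lateral replicate 2 lay above the lowest pair of medial libraries, and the other lateral libraries lay below every medial one. The log2 fold change was -1.09 with a standard error (SE) of 0.37 (limma adjusted p = 0.184). Sv2b, a transporter-like vesicle glycoprotein, was at 18.4, 1.79, 17.2, 14.98 and 35.6 TPM in lateral and 41.1, 32.6, 20.7, 31.1 and 38.6 TPM in medial libraries. Its values overlapped through lateral replicate 5 (log2 fold change -1.22, SE 0.52, adjusted p = 0.288 by limma), and without lateral replicate 2, which held the lowest value, the log2 fold change was -0.63. Its relatives Sv2a and Sv2c, at means of 104 and 46.4 TPM over all libraries, were both more abundant than Sv2b at 25.2 TPM.

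None of 8 genes of the SNARE core and its handling passed, and their differences ran from -0.79 to 0.22 with a median of 0.08. SNAP-25, the plasma membrane SNARE encoded by Snap25, was at 482, 400.1, 376, 412 and 387 TPM in lateral and 357, 321, 330.1, 424 and 519 TPM in medial libraries. The regions overlapped over most of their range, and the log2 fold change of 0.10 had a 95% interval of -0.25 to 0.44. Vamp2, encoding the vesicle SNARE synaptobrevin 2, was at 279, 314, 337, 218 and 316 TPM in lateral and 333, 178, 344, 355 and 512 TPM in medial libraries, with medial libraries at both extremes. Its log2 fold change of -0.17 (95% interval -0.68 to 0.34, limma adjusted p = 0.772) was 0.039 under median-ratio scaling. Nsf, the ATPase that takes used SNARE complexes apart, was the steadiest of all 52 genes, between 110.5 and 139 TPM in all 10 libraries, a coefficient of variation of 7.68%. Its partner Napb, encoding beta-SNAP, ranged from 70.5 to 108 TPM.

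Vamp1, encoding synaptobrevin 1, was at 16.3, 19.2, 15.9, 9.59 and 0.966 TPM in lateral and 10.1, 13.4, 14.95, 27.7 and 25.1 TPM in medial libraries. Lateral replicate 5 stood far below all others, and without that library the log2 fold change moved from -0.79 to -0.19 (limma adjusted p = 0.530 with all libraries). The gene span of Vamp1 overlaps those of Tapbpl and Cd27 on the opposite strand, and overlap of exons was not checked. The use of strand in counting was not stated in the sources used. Stxbp5, encoding tomosyn, which inhibits SNARE assembly, was at 12.5, 16.7, 9.27, 10.7 and 13.5 TPM in lateral and 10.2, 10.1, 8.83, 14.2 and 10.9 TPM in medial libraries. The regions overlapped almost entirely (log2 fold change 0.18, SE 0.24).

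The calcium sensors were the group with the widest differences, from -0.73 to 1.82, and again none of 12 passed. Syt2, a fast calcium sensor that parvalbumin interneurons of the mouse cortex are known to use, was at 6.11, 15.4, 5.22, 6.86 and 9.92 TPM in lateral and 5.80, 1.25, 0.785, 1.92 and 0.423 TPM in medial libraries. The 4 other medial libraries lay below every lateral one, and medial replicate 1 lay just above the lowest lateral value. The log2 fold change was 1.82 with an SE of 0.45 (limma adjusted p = 0.0707), and without medial replicate 1 it was 2.17 (adjusted p = 0.0221). Leaving out any other single library gave an adjusted p of 0.0745 to 0.151, and the remaining alternatives gave 0.0509 to 0.260. The gene span of Syt2 overlaps that of Ppp1r12b on the opposite strand. Whether their exons overlap, so that counting without strand could mix their reads, was not checked.

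Several marker lists had higher lateral values, as Syt2 had. Of 8 GABAergic interneuron markers tested, 7 had higher lateral values and none passed. Calb2 went the other way, by -1.36 on the log2 scale (limma adjusted p = 0.431). With the untested Vip, the list summed to 527 to 5703 TPM in lateral and 34.6 to 1691 TPM in medial libraries. Most of the lateral sums was Sst and Npy. Sst was at 277 to 2577 TPM in lateral and 0 to 825 TPM in medial libraries, and Npy at 186 to 2962 and 6.82 to 804 TPM. The sum therefore says little about parvalbumin cells. Pvalb, the parvalbumin gene, was at 24.3, 7.92, 15.9, 2.19 and 7.79 TPM in lateral and 18.2, 0, 0, 2.18 and 0 TPM in medial libraries. The medial library with Syt2 at 5.80 TPM was also the medial library with the highest Pvalb. Its summed interneuron markers were at 35.3 TPM, among the lowest of all 10 libraries, with Sst at 0 and Npy at 6.82 TPM. Microglia markers were higher in lateral for 10 of 10 genes, of which 3 passed, at sums of 426 to 666 TPM in lateral and 202 to 432 TPM in medial libraries. Oligodendrocyte markers were higher in lateral for 9 of 10, of which none passed, at sums of 310 to 1037 and 113 to 514 TPM. The part of these lists in the difference of Syt2 was not tested.

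Syt5 showed the opposite order, with 4 medial libraries above every lateral one. This synaptotagmin, found on secretory and synaptic vesicles, was at 134, 148, 123, 169.5 and 193 TPM in lateral and 148, 289.6, 281, 285 and 295 TPM in medial libraries. Medial replicate 1 lay within the lateral range. The log2 fold change was -0.73 with an SE of 0.21 (limma adjusted p = 0.110), and -0.92 without medial replicate 1 (adjusted p = 0.0150). Leaving out any other single library gave an adjusted p of 0.117 to 0.232, and the remaining alternatives gave 0.0873 to 0.243. Syt1, the main calcium sensor of fast release in the forebrain, was at 222, 249, 211, 237 and 212 TPM in lateral and 259, 233, 262, 322 and 352 TPM in medial libraries. A single medial library, replicate 2, lay within the lateral range, and the difference was small, at -0.32 (95% interval -0.64 to -0.01, limma adjusted p = 0.311). Syt4 and Syt11, which bind no calcium through their first C2 domain, had means of 108 and 181 TPM over all libraries and differences of -0.43 and 0.36 (limma adjusted p = 0.315 and 0.327). Rph3a, encoding the Rab3 effector rabphilin, had a mean of 39.4 ± 13.5 TPM (SD, n = 5) in lateral and 21.7 ± 12.9 TPM (SD, n = 5) in medial libraries (limma adjusted p = 0.273). The remaining sensors were less abundant. Doc2b, Syt6, Syt7, Syt10 and Syt13 had means of 8.85 to 30.6 TPM, and Syt17 had the lowest at 1.52 TPM and was listed at 0 in 2 medial libraries.

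**Figure D2:**
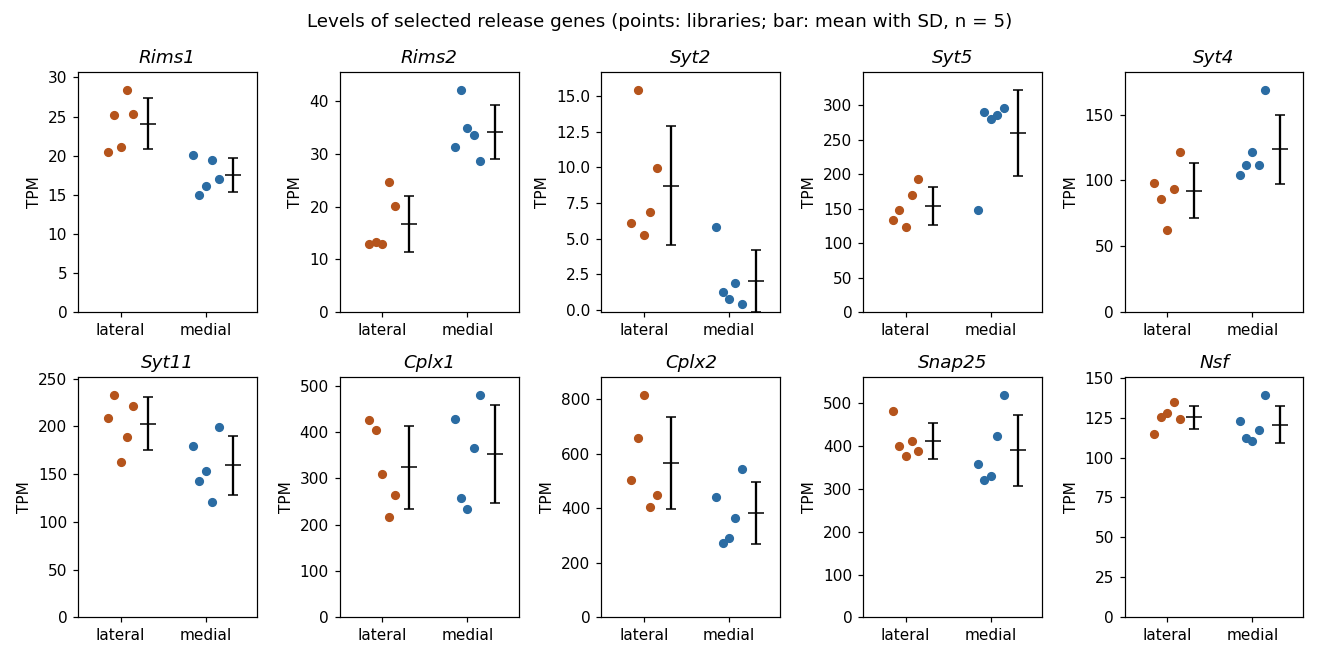
TPM of 10 release genes in each library, with lateral libraries in orange and medial libraries in blue. Points are libraries and the bar beside them is the mean with its SD (n = 5 per region), with the vertical axis starting at 0 or below. The values of the regions do not overlap for Rims1 and Rims2, nearly separate for Syt2 and Syt5, and overlap widely for Snap25, Cplx1 and Nsf.

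Complexins clamp and then assist SNARE complexes, and both measured members were among the most abundant release genes. Cplx2 had the highest mean of the 52 genes, 474 TPM, followed by Rab3a (431 TPM), Snap25 (401 TPM), Cplx1 (339 TPM), Vamp2 (318 TPM) and Syt1 (256 TPM). Cplx2 was at 505, 657, 815, 406 and 449.6 TPM in lateral and 442, 271, 291, 363 and 544 TPM in medial libraries. The regions overlapped, with lateral replicates 2 and 3 above every medial library. Its log2 fold change was 0.57 with an SE of 0.23 (limma adjusted p = 0.262). Cplx1 was at 425, 405, 309, 217 and 265 TPM in lateral and 428, 257, 234, 366 and 480.3 TPM in medial libraries. Cplx1 overlapped throughout, at -0.11 (95% interval -0.63 to 0.40). That difference was 0.10 under median-ratio scaling, 0.020 without lateral replicate 4 and 0.012 without medial replicate 5.

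The Cplx1 and Cplx2 transcripts share the longest exact run of any pair compared here, 32 bases. The first 90 coding bases of each are shown because a read that lay wholly within the run would match both genes. Reads longer than the run cannot do so there without a mismatch, and the read length was not stated. Capitals mark the shared run, at coding bases 28 to 59 counted from the A of the start codon in both genes, and 79 of the 90 bases are identical. The sequences are from GENCODE transcripts on GRCm38. The Cplx1 stretch lies on the minus strand in 2 coding exon segments, chr5:108548506-108548536 and chr5:108525509-108525567, and that of Cplx2 on the plus strand at chr13:54378669-54378699 and chr13:54378812-54378870.
Cplx1: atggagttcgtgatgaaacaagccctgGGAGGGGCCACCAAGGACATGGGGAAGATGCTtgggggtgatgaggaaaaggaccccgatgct
Cplx2: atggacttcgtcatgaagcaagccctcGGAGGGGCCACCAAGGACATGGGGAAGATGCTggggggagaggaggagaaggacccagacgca

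The active zone and Rab3 group held the only call and the only genes whose values did not overlap between the regions. Rims2 (chromosome 15, 39198261 to 39684372, plus strand, GRCm38) was at 12.9, 13.2, 12.9, 24.6 and 20.1 TPM in lateral and 31.3, 42.2, 34.9, 33.6 and 28.7 TPM in medial libraries. Every medial library lay above every lateral one, the closest being medial replicate 5 and lateral replicate 4. The means were 16.7 ± 5.37 TPM (SD, n = 5) in lateral and 34.2 ± 5.07 TPM (SD, n = 5) in medial libraries, a 2.04-fold difference between means. The log2 fold change was -1.03 with an SE of 0.22 (95% interval -1.51 to -0.54, limma adjusted p = 0.0391). The call lay close to the threshold. It held without lateral replicate 4 (adjusted p = 0.0326) and was lost without any 1 of lateral replicates 1, 2, 3 and 5 or of the 5 medial replicates (adjusted p from 0.0536 to 0.111), while the log2 fold change stayed between -1.17 and -0.95. Median-ratio scaling (-0.82, adjusted p = 0.129) and quantile normalization (-0.86, adjusted p = 0.120) also ended it.

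Rims1, the close relative of Rims2, had the opposite order. Rims1 (chromosome 1, 22286251 to 22805994, minus strand) was at 20.5, 25.1, 21.1, 28.4 and 25.4 TPM in lateral and 20.1, 15.01, 16.2, 19.5 and 17.0 TPM in medial libraries. Every lateral library lay above every medial one, by a margin of 1.02-fold between lateral replicate 1 and medial replicate 1. Its log2 fold change of 0.43 (SE 0.19) did not pass (limma adjusted p = 0.289). Groups that did not overlap with lateral higher were 1 of 52 release genes and 0.859% of all genes, and with medial higher 1 of 52 and 3.39% of all genes. Markers of several cell types had lower lateral values, as Rims2 had. They included those of neuroblasts, where all 6 had lower lateral values and 1, Sox11, passed. These 6 summed to 68.3 to 103 TPM in lateral and 86.1 to 161 TPM in medial libraries. Most of each sum was Tubb2b, at 47.9 to 94.7 and 49.6 to 106 TPM (log2 fold change -0.32, limma adjusted p = 0.535). Dcx, Dlx1, Dlx2 and Cd24a had means of 2.36 to 4.19 TPM over all libraries. Of 10 astrocyte markers 8 had lower lateral values and 1 passed, at sums of 851 to 1162 and 1010.4 to 1386 TPM. Markers of spiny projection neurons, the main neurons of this tissue, had differences of -0.98 to 0.45 with a median of -0.02. Of these 10, 6 had lower lateral values and 1 passed, at sums of 4010.0 to 5910.3 and 4401 to 6754 TPM. That gene, Gad2, encoding a GABA-synthesizing enzyme, was at 159.9 to 218 TPM in lateral and 264 to 404 TPM in medial libraries, with no overlap (log2 fold change -0.90, adjusted p = 0.0133 by limma). Of 12 general neuron markers, 6 had lower and 6 higher lateral values, none passed, and the median was 0.03. The lowest was Map2, encoding a dendritic microtubule protein, at -0.88 (limma adjusted p = 0.138). The highest was Thy1 at 0.48 (limma adjusted p = 0.377). The part of these marker lists in the result was not tested.

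Within a library, Rims1 made up 61.5%, 65.5%, 62.1%, 53.6% and 55.8% of the summed TPM of Rims1 and Rims2 in lateral replicates 1 to 5. In medial replicates 1 to 5 it made up 39.1%, 26.2%, 31.6%, 36.7% and 37.2%. Rims1 thus had the higher TPM of the pair in all 5 lateral libraries and Rims2 in all 5 medial libraries. That the shares do not overlap follows from the values of the single genes given above and is not a further result. Multiplying a library by a single factor leaves this share as it is. The summed level of the pair was 33.4 to 53.04 TPM in lateral and 45.8 to 57.2 TPM in medial libraries, which overlap.

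The longest exact run shared by coding parts of Rims1 and Rims2 transcripts was 23 bases, and 26 bases over whole transcripts. The stretch around it is shown since the values of neither gene overlapped between the regions. Reads longer than the run cannot match both genes there without a mismatch. The read length was not stated in the sources used. Capitals mark the shared run, and 69 of 90 bases are identical. Both stretches lie in a single coding exon on GRCm38, that of Rims1 at chr1:22346372-22346461 on the minus strand and that of Rims2 at chr15:39616336-39616425 on the plus strand.
Rims1: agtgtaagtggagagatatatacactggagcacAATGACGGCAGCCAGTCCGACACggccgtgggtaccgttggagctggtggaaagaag
Rims2: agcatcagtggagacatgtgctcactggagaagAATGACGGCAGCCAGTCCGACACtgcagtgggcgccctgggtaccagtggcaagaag

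Of the other Rab3 and active zone genes none passed. Rab3c, a vesicle GTPase, was at 48.6, 41.5, 46.0, 60.0 and 50.5 TPM in lateral and 42.2, 64.2, 90.1, 79.0 and 95.01 TPM in medial libraries. All medial libraries but replicate 1 lay above the lateral range (log2 fold change -0.53, SE 0.22, adjusted p = 0.265 by limma). Rab3a, the main Rab of synaptic vesicles, was at 414, 444, 394, 335 and 292 TPM in lateral and 376, 330.0, 508, 477 and 738 TPM in medial libraries. The regions overlapped, and medial replicate 5 was highest (log2 fold change -0.33, 95% interval -0.78 to 0.12, and -0.16 without medial replicate 5). The giant scaffold Bassoon, Bsn, had a mean of 31.7 ± 7.51 TPM (SD, n = 5) in lateral and 21.8 ± 2.40 TPM (SD, n = 5) in medial libraries (limma adjusted p = 0.273). Its relative Piccolo, Pclo, leaned the other way at -0.23, and Erc2, another scaffold, stood at 41.2 and 41.5 TPM with a log2 fold change of -0.0033. Of the Munc13 priming factors, Unc13c (34.1 TPM over all libraries) was more abundant than Unc13a (13.7 TPM), and Unc13b was near the filter at 1.35 TPM.

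Among endocytosis genes none of 5 passed, and the differences ran from -0.11 to 0.41. Sh3gl2, encoding endophilin A1, which bends membrane, was at 111, 92.9, 44.4, 91.8 and 86.8 TPM in lateral and 32.8, 81.6, 39.4, 83.2 and 99.5 TPM in medial libraries. Lateral replicate 3 and medial replicates 1 and 3 were low and the other 7 libraries lay between 81.6 and 111 TPM (limma adjusted p = 0.594). Snap91, encoding the clathrin assembly protein AP180, was at 37.9, 28.3, 28.4, 27.8 and 37.1 TPM in lateral and 27.5, 35.6, 31.0, 34.6 and 43.8 TPM in medial libraries. The regions overlapped, with a log2 fold change of -0.11 that was 0.10 under median-ratio scaling and 0.056 under quantile normalization. Dnm1, the GTPase dynamin that cuts vesicles from the membrane, had means of 36.0 and 32.9 TPM, and Synj1, the lipid phosphatase synaptojanin, 59.9 and 73.9 TPM.

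None of the 3 remaining genes passed. Nptx1, a secreted pentraxin that gathers AMPA receptors, was at 5.71, 6.01, 9.58, 12.4 and 6.20 TPM in lateral and 5.98, 0.415, 3.40, 5.82 and 0.476 TPM in medial libraries. Medial replicates 2 and 5 were lowest, and lateral replicate 1 lay within the medial range (log2 fold change 1.36, SE 0.50, adjusted p = 0.219 by limma). Its membrane-bound relative Nptxr was at 24.4, 28.1, 25.3, 9.09 and 10.4 TPM in lateral and 8.02, 8.88, 14.5, 16.9 and 21.7 TPM in medial libraries. The lateral libraries split into a higher and a lower set that together spanned most of the medial range (limma adjusted p = 0.647). Sncb, encoding beta-synuclein, ranged from 7.73 to 27.7 TPM in lateral and from 5.38 to 30.9 TPM in medial libraries.

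The balance between paralogues was compared within libraries for 12 pairs, with no test. In 3 pairs the share of the first gene did not overlap between the regions. Shares were not computed for other gene pairs, so how often pairs separate in these data is unknown. Beside Rims1 and Rims2, these were Syt4 with Syt11 and Syt1 with Syt2. Syt4 made up 31.96%, 27.0%, 27.8%, 33.2% and 35.3% of the summed TPM of Syt4 and Syt11 in lateral and 36.8%, 43.8%, 44.1%, 48.0% and 45.8% in medial libraries. Syt11 thus had the higher TPM of the pair in all 10 libraries, and more so in lateral ones. Syt1 made up 94.2% to 97.6% of Syt1 and Syt2 in lateral and 97.8% to 99.9% in medial libraries, so Syt2 was a small share in both regions. Cplx1 made up 27.5% to 45.7% of the complexin pair in lateral and 44.5% to 50.2% in medial libraries, where lateral replicate 1 was the only lateral library within the medial range. The other 8 pairs overlapped more widely. Vamp1 never exceeded 7.23% of the synaptobrevin pair, and Rab3a was 83.7% to 91.4% of Rab3a and Rab3c. The longest exact run shared by the transcripts of a pair was 12 to 32 bases over the 12 pairs.

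**Figure D3:**
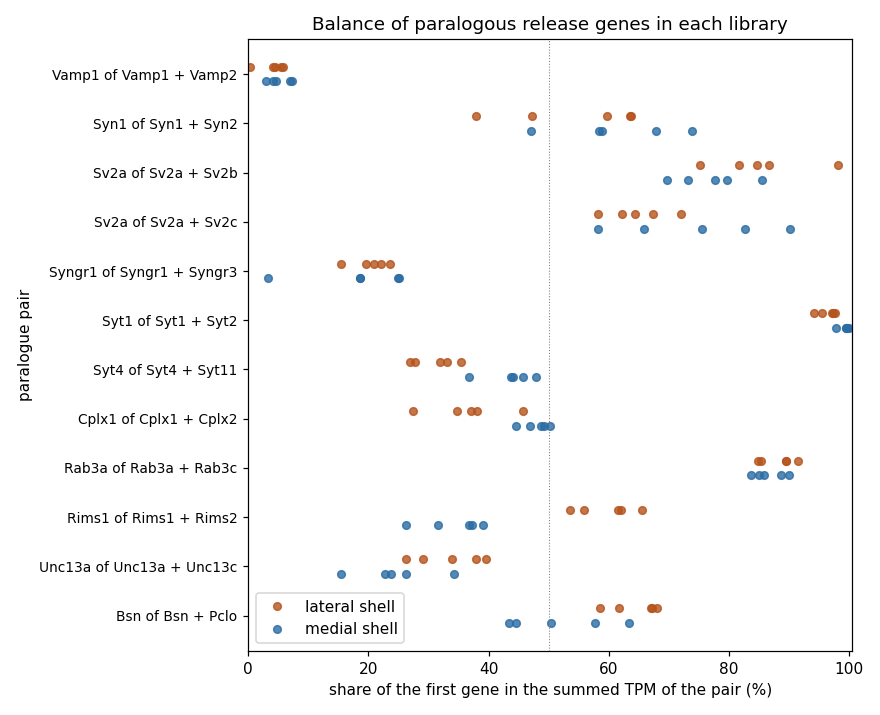
Share of the first gene in the summed TPM of each of 12 paralogue pairs, in percent, with a point for each lateral (orange) and medial (blue) library. For Rims1 with Rims2 the lateral libraries lie at 53.6% to 65.5% and the medial libraries at 26.2% to 39.1%, on opposite sides of equal levels (dotted line).

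A stretch of 90 coding bases that holds the 26-base run shared by Syt1 and Syt2 is shown because Syt2 is far less abundant than Syt1. There 71 of 90 bases are identical, and capitals mark the run. The stretch of Syt1 lies on the minus strand in 2 coding exon segments, chr10:108583874-108583945 and chr10:108504513-108504530, and that of Syt2 on the plus strand at chr1:134745776-134745847 and chr1:134746754-134746771, all on GRCm38.
Syt1: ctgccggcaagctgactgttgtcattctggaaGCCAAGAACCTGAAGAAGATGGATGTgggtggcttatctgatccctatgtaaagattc
Syt2: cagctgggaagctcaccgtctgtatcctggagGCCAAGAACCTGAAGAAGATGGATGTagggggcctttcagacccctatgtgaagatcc

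Summed over the 52 release genes, the regions overlapped. The sum was 3938 to 4752 TPM in lateral and 3569 to 5920 TPM in medial libraries. Medial replicate 5 held the highest value of 20 of the 52 genes, among them Snap25, Vamp2, Syt1, Syp, Syn1, Rab3a and Cplx1. It also had the highest summed level of 12 general neuron markers (2573 TPM, against 1592 to 2371 TPM in the others) and the lowest mitochondrial share of TPM (23.5%, against 26.3% to 35.3%). Their part in its release gene levels was not tested. Without that library the median log2 fold change of the 52 genes was 0.11. Medial replicates 1 and 2 each held the lowest value of 10 genes.

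**Figure D4:**
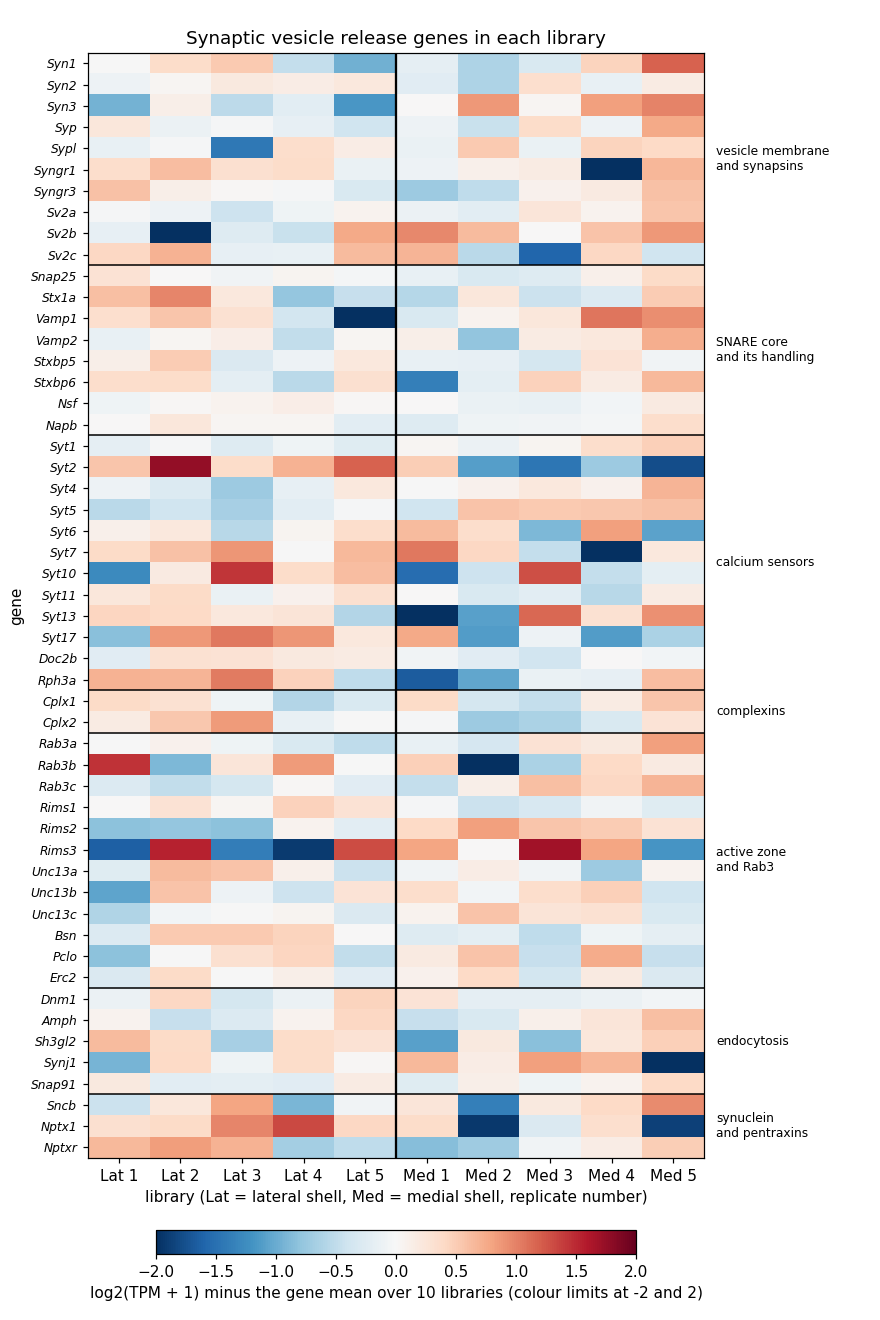
Each row is a release gene, grouped by role, and each column a library. Colour is log2(TPM + 1) minus the mean of the gene over 10 libraries, with colour limits at -2 and 2. Medial replicate 5 (right column) is above the mean for most vesicle and SNARE genes, Syt2 is higher and Rims2 lower in the lateral columns, and single dark blue cells mark genes that were low in 1 library.

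A further 74 genes of release and membrane retrieval were listed by role, of which 66 were analysed and 60 tested. None of the 60 passed in either direction by limma, and at an unadjusted p under 0.05 there were 3 in each direction. Over all genes tested, 0.385% passed in lateral and 1.1% in medial, and 3.03% and 12.3% had an unadjusted p under 0.05. The median log2 fold change of the 60 was -0.10, with 25 positive and 35 negative, and that of all genes was -0.21. Snap23, Stx4a and Erc1 were among the 4 with the smallest p. Snap23, a widely expressed relative of SNAP-25, was at 3.75, 0.949, 1.21, 2.29 and 0.258 TPM in lateral and 4.51, 5.35, 7.79, 3.58 and 10.6 TPM in medial libraries, with only lateral replicate 1 inside the medial range (limma adjusted p = 0.109). Stx4a, encoding a plasma membrane syntaxin, was at 13.5 to 20.04 TPM in lateral and 6.23 to 12.5 TPM in medial libraries (limma adjusted p = 0.145). Erc1, a relative of Erc2, was at 3.96 to 7.70 TPM in lateral and 8.22 to 10.4 TPM in medial libraries, with no overlap (log2 fold change -0.75, limma adjusted p = 0.188).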

How the data were processed

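The authors deposited TPM per gene symbol for 10 libraries. Per the submitters' processing notes, the tools were featureCounts 1.6.3, StringTie 1.3.4, HISAT2 2.1.0 and fastp 0.20.0 with the build GRCm38 (mm10), with no roles or order given. Annotation, use of strand and gene filters: not given in the sources used here. TPM keeps no read depth, so depth is unknown and no counting interval is given. Of the 52 release genes, 29 overlap another gene on the opposite strand and 19 on the same strand in GENCODE M21. These overlaps are of whole gene spans, introns included, and overlap of exons was not checked.

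Differences were fitted with limma 3.58.1 in R 4.3.3 (empirical Bayes, trend on the mean) using log2(TPM + 1) for the 15596 genes that reached 1 TPM in 5 or more libraries. Benjamini-Hochberg adjustment ran over all of them, with 0.05 as the threshold. Fold changes on this scale understate changes of low genes. In a simulation of 15596 genes that copied the spread of each gene, true log2 differences of 1, 2 and 3 were called in 25.4%, 62.7% and 84.8% of cases. The changed genes were drawn at random from all genes, with noise independent between genes. The rates are therefore not those of the release genes. Values were given by library for genes that passed, the 2 with the smallest p per role and the 6 most abundant. Of the other pathway genes, the rule named those that passed or else the 4 with the smallest p, of which 1 is not reported here. Rims1, Syt4, Syt11 and other genes given beyond that rule were chosen after their values were seen. The members, lists and pairs were chosen with earlier results of these data known. Shared runs were searched in GENCODE M21 transcripts with Python 3.11.15. Replicate numbers were checked for pairing, and no lateral library matched the medial library of its own number best. This does not exclude that same-numbered libraries came from the same animal.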

Additional observations from a re-analysis of the deposited data

Results flagged for a closer look

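In 10 of 104 groups of 5 libraries (52 genes in 2 regions), 1 library stood apart from the other 4 on the log2(TPM + 1) scale by Dixon's ratio. For independent, normally distributed values chance alone gives about 1 in 20 groups. The share of groups flagged over all genes was not computed. Whether 10 of 104 is more than in other genes of these libraries is therefore unknown. In lateral libraries, Sypl was at 2.12 TPM in replicate 3 against 6.60 to 9.69 TPM in the others, and Sh3gl2 was at 44.4 TPM in replicate 3 against 86.8 to 111 TPM. Vamp1 was at 0.966 TPM in lateral replicate 5 against 9.59 to 19.2 TPM, Syt13 was at 4.59 TPM in the same library against 8.66 to 10.3 TPM, and Doc2b was at 17.2 TPM in lateral replicate 1 against 23.0 to 25.5 TPM.

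In medial libraries, Syngr1 was at 6.57 TPM in replicate 4 against 34.5 to 59.2 TPM, and Unc13a was at 7.58 TPM in the same library against 12.4 to 14.8 TPM. Syt5 was at 148 TPM in medial replicate 1 against 281 to 295 TPM, and Dnm1 was at 41.3 TPM there against 29.6 to 32.4 TPM. Synj1 was at 13.5 TPM in medial replicate 5 against 65.3 to 104 TPM, although that library held the highest value of 20 other release genes.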

How the results depend on the processing

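Over all genes, 60 were called higher in lateral and 171 in medial. Without a mean-variance trend there were 34 and 111, and without lateral replicate 5 and medial replicate 2, where AY036118 was near 0 TPM against at least 82499.7 TPM in the others, there were 15 and 35. The lateral and medial counts were 42 and 107 with a pseudocount of 0.1, 88 and 82 under median-ratio scaling, and 86 and 100 under quantile normalization. Medial genes made up 74.0% of calls, against 48.2% and 53.8% under the latter scalings. Leaving out 1 library at a time gave 27 to 68 genes in lateral and 56 to 187 in medial. The replicate number as a block gave 19 and 45 genes and no release gene, with Rims2 at an adjusted p of 0.109. Correlations of same-numbered libraries ran from -0.05 to 0.04 and no lateral library matched its own number best. These values cannot tell whether same-numbered libraries came from the same animal, since technical spread could hide it.

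Among release genes, the medial count of 1 (Rims2) became 0 with a pseudocount of 0.1, without a filter on low values, under median-ratio scaling, under quantile normalization, after rescaling without mitochondrial and haemoglobin genes, without a trend, with the block and without both libraries named above (adjusted p from 0.0506 to 0.146). It stayed 1 with a pseudocount of 5, a filter of 5 TPM, robust fitting and sample weights. Leaving out 1 library at a time gave 0 to 1 genes in each direction: Rims2 without lateral replicate 4, and Syt5 in medial and Syt2 in lateral without medial replicate 1. Rims2 had a negative log2 fold change under all 22 alternatives. The sign of small differences turned for Vamp2 (0.039), Cplx1 (0.099) and Snap91 (0.099) under median-ratio scaling, for Snap91 (0.056) under quantile normalization, and for Cplx1 without lateral replicate 4 (0.020) or medial replicate 5 (0.012), where leaving out 1 library at a time gave -0.247 to 0.020. Depth is unknown. Differences of 1 on the log2(TPM + 1) scale were called in 25.4% of simulated cases, which were drawn from all genes and do not give the rate for release genes.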
